A study of Mus musculus with 9 samples.

Results

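The genes described here mark oligodendrocyte precursors and the early steps of the oligodendrocyte lineage in 3 regions of the mouse brainstem. They are Pdgfra, Cspg4, Cspg5, Olig1, Olig2, Sox10, Sox8, Gpr17, Bcas1 and Neu4, which the array spells PDGFRA, CSPG4, CSPG5, OLIG1, OLIG2, SOX10, SOX8, GPR17, BCAS1 and NEU4. These are 10 of the 30854 names on the array, and every probe that carries one of them was taken, 15 of 45281. The tissue came from 3 male Chat-Cre:Ai9 mice aged 8 weeks, a strain that joins Chat-Cre, in which Chat (choline acetyltransferase, a marker of cholinergic neurons) drives the Cre enzyme, to Ai9, a red fluorescent reporter switched on by Cre. All 9 arrays share this genotype, and the labels name no treatment. The labels call the regions dorsal, ventral and target, each with 3 arrays, 1 from each mouse, and do not say how they were dissected or what the target region is.

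Oligodendrocyte precursors are dividing glial cells that persist in the adult brain and respond to platelet-derived growth factor. As they commit, they switch off the growth factor receptor and the NG2 proteoglycan, pass through a short premyelinating stage, and then make myelin. OLIG and SOX transcription factors run through the whole lineage, so some of these genes mark precursors, some a passing stage and some all oligodendrocytes. In whole tissue, fewer cells of a type and less RNA per cell cannot be told apart.

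Levels are log2 intensities after background correction and quantile scaling, and a difference of 1 is a doubling of intensity. Between 16703 and 19945 probes were above background on an array. Unnormalized medians ran from 146.1 to 230.9, and the 3 arrays with the highest medians (ventral arrays 1 and 2 and target array 3) also had the fewest probes above background. Leaving these 3 out keeps only array 3 of the ventral region. A call lost in that fit cannot be told apart from a loss of replicates, so differences without p-values are given for it. Of the 15 member probes 13 passed the filter on dim probes (detection p below 0.05 on at least 3 of the 9 arrays), 10 of them on all 9 arrays. The probe for Olig2 (4250463) was above background on 0 of 9 arrays and another, dim probe for Neu4 (4540520) on 2, both dorsal, so neither was tested and Olig2 has no measured level here. A member probe was read through 24 to 68 beads per array, and the standard error over beads was 1.81% to 6.15% of the intensity for tested probes (median 3.34%). Precision rests on 3 arrays a region. By at least 1 probe, 7 of 8 neuronal markers and 4 of 8 hindbrain Hox genes passed that filter, as did 20461 of all 45281 probes. The tested Hox genes were dim, with mean levels from 6.01 to 6.88 over the arrays. These counts are therefore no check on the tissue. The remaining neuronal marker, Rbfox3, had no probe under that name.

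Dorsal and ventral differed in 4 of the 9 tested genes by the brightest probe of each, and not in one direction. Neu4 (by its brightest probe only) and Cspg4 were higher in dorsal, while Bcas1 and Sox10 were higher in ventral. Of the 13 tested probes 4 passed (30.8%, 2 in each direction), against 7.98% of all tested probes (4.06% higher and 3.92% lower in dorsal). At an unadjusted p below 0.05 there were 5 of 13, and 4548 of all 20461 tested probes. The median difference of the 13 was -0.01, and that of all tested probes 0.04. The arrays of the 2 regions did not overlap for the same number of member probes, 4 of 13, where 26.7% of all tested probes did not overlap.

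**Figure D1:**
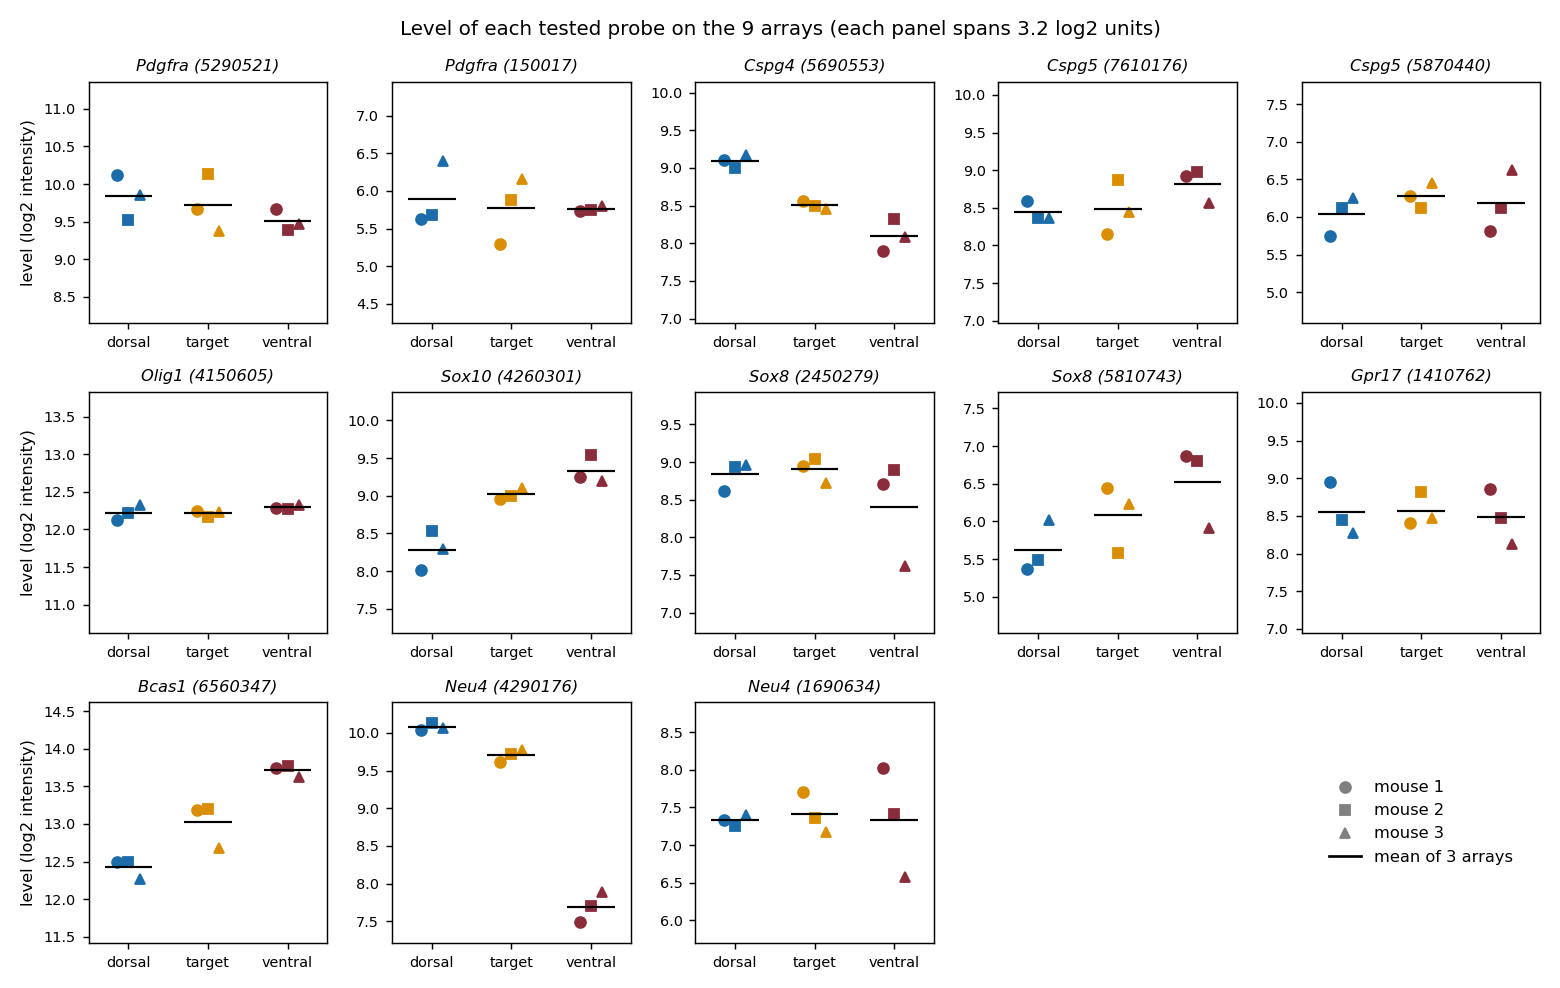
Level (log2 intensity) of each of the 13 tested probes on the 9 arrays, by region, with symbols for the 3 mice and bars for the mean of 3 arrays. Neu4 (4290176) and Cspg4 step down from dorsal to ventral, Sox10 and Bcas1 step up, and Olig1 stays between 12.12 and 12.32.

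Neu4 encodes a sialidase, an enzyme that removes sialic acid from glycoproteins and glycolipids, and its RNA is found mainly in the oligodendrocyte lineage in the mouse brain. Its brightest probe (4290176) read 10.04, 10.14 and 10.07 on the dorsal arrays of mice 1, 2 and 3. It read 9.62, 9.72 and 9.77 on the target arrays and 7.49, 7.70 and 7.89 on the ventral arrays. All 6 dorsal and target values lay far above the 3 ventral ones, and dorsal and target did not overlap either. Before any correction the intensities were 1266.6 to 1502 in dorsal, 800.1 to 950.9 in target and 335.8 to 409.4 in ventral.

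By this probe dorsal held 5.25-fold more Neu4 than ventral (2.39 on the log2 scale, SE 0.17, adjusted p by limma = 1.98e-04, higher in 3 of 3 mice). It was 4.03-fold higher in target than in ventral (2.01, SE 0.17, limma adjusted p = 9.26e-04, higher in 3 of 3 mice). Target lay 0.38 below dorsal (95% interval of the difference -0.76 to -0.005, limma adjusted p = 0.515), which did not pass. The dorsal call held under each of the 17 alternatives. The target call ended only in the fit without ventral arrays 1 and 2 and target array 3, where the difference was 1.78.

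The other tested Neu4 probe (1690634) did not show this. It read 7.34, 7.26 and 7.40 in dorsal, 7.70, 7.36 and 7.17 in target and 8.03, 7.41 and 6.57 in ventral. The ventral arrays spread over more than the whole range of the other regions, so the groups overlap fully. Its dorsal minus ventral difference was -0.01 (95% interval -0.75 to 0.74, limma adjusted p = 0.996). The dim, untested probe read 5.44 to 5.81 in dorsal, 4.97 to 5.601 in target and 5.10 to 5.39 in ventral. Averaged over both tested probes, Neu4 exceeded ventral by 1.19 in dorsal (adjusted p = 0.00491) and by 1.04 in target (adjusted p = 0.0294). Which Neu4 transcripts each probe reads was not analysed here.

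Cspg4 encodes the NG2 proteoglycan of the precursor cell surface, which pericytes also carry. Its single probe (5690553) read 9.11, 9.003 and 9.18 in dorsal, 8.57, 8.49 and 8.46 in target and 7.90, 8.32 and 8.08 in ventral. No value of one region overlapped another, with target in the middle. Dorsal was 1.99-fold above ventral (0.996, SE 0.17, limma adjusted p = 0.00839, higher in 3 of 3 mice). Target lay 0.59 below dorsal (adjusted p = 0.326) and 0.41 above ventral (adjusted p = 0.287), and neither passed. The dorsal call ended only without the 3 arrays of highest unnormalized median, where ventral kept only array 3 and the difference was 1.02.

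Of 6 pericyte markers 4 were tested and 0 passed by limma in any pair of regions, with 0 at an unadjusted p below 0.05 between dorsal and ventral and 1 in each of the other pairs. Their mean level ran from 7.89 to 8.14 in dorsal, 7.63 to 7.97 in target and 7.84 to 8.24 in ventral, and Pdgfrb and Anpep were too dim to be tested.

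Bcas1 encodes a protein of newly formed, myelinating oligodendrocytes that stays in myelin. Its probe (6560347) read 12.50, 12.49 and 12.27 in dorsal, 13.19, 13.20 and 12.69 in target and 13.75, 13.77 and 13.63 in ventral. The 3 regions did not overlap, in the reverse order to Neu4. Ventral was 2.45-fold above dorsal (difference dorsal minus ventral -1.29, SE 0.19, limma adjusted p = 0.00440, lower in dorsal in 3 of 3 mice). Target was 0.60 above dorsal (adjusted p = 0.371) and differed from ventral by -0.69 (adjusted p = 0.114). The latter passed without background correction (-0.68, adjusted p = 0.0235). The dorsal minus ventral call ended without the 3 arrays of highest unnormalized median, with only ventral array 3 left (difference -1.20).

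Sox10 encodes a transcription factor that the lineage carries from precursor to mature cell and that switches on myelin genes. Its probe (4260301) read 8.01, 8.54 and 8.29 in dorsal, 8.96, 8.99 and 9.10 in target and 9.25, 9.54 and 9.20 in ventral. Every dorsal value lay below every target value, and every target value below every ventral one. Ventral was 2.07-fold above dorsal (dorsal minus ventral -1.05, SE 0.19, limma adjusted p = 0.0111, lower in dorsal in 3 of 3 mice). Target differed from dorsal by 0.74 (adjusted p = 0.253) and from ventral by -0.31 (adjusted p = 0.480). The call ended with arrays centred on their medians (-0.64, adjusted p = 0.113), a scaling that moves the median of all tested probes to 0.36, so that Sox10 stood at -1.003 relative to that median. It also ended without the 3 arrays of highest unnormalized median (difference -0.92, with only ventral array 3 left).

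For these 4 probes the target mean lay between the other means. On the way from the ventral to the dorsal mean, target stood at 84.0% for Neu4, 53.3% for Bcas1, 40.7% for Cspg4 and 29.7% for Sox10. A target mean in the middle was the rule among all probes called between dorsal and ventral (91.2%), and 44.5% of all tested probes had one.

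**Figure D2:**
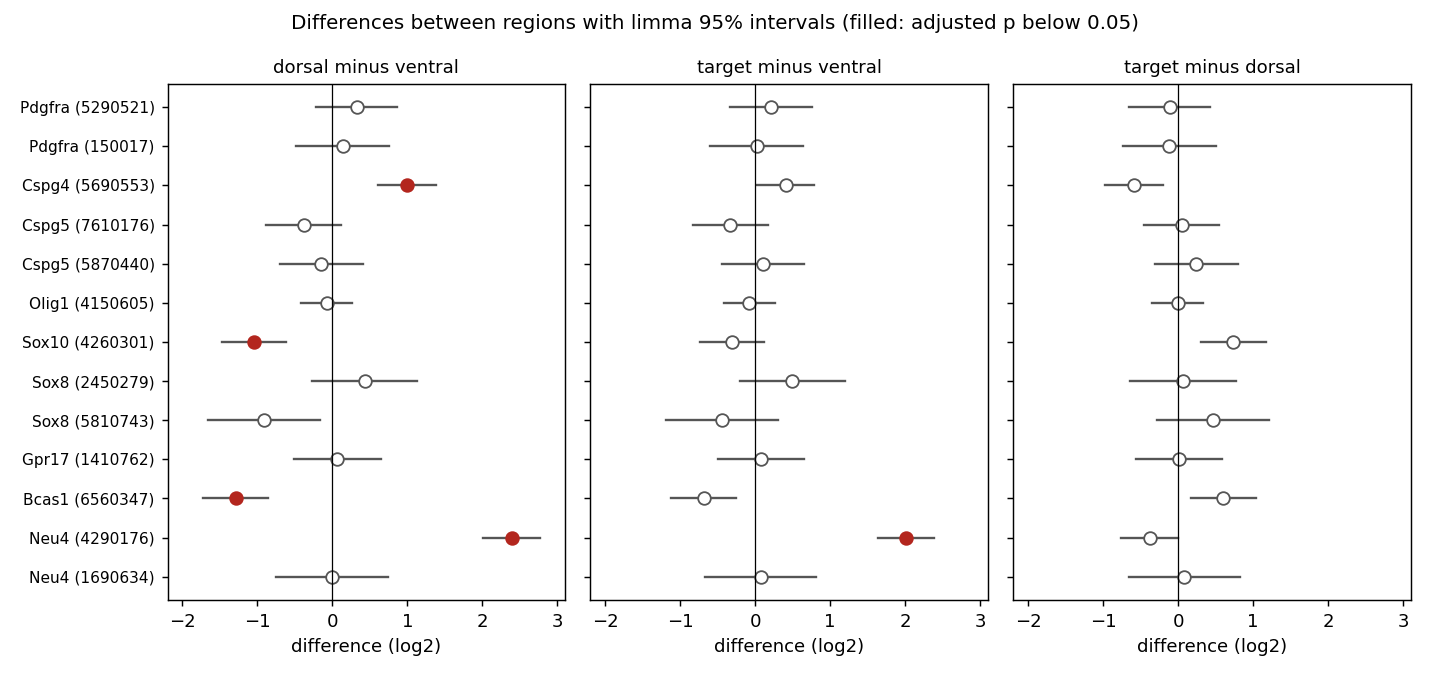
Difference (log2) between 2 regions for each tested probe, with limma's 95% interval, and a filled point where the adjusted p is below 0.05. Filled points are Cspg4, Sox10, Bcas1 and Neu4 (4290176) between dorsal and ventral, Neu4 (4290176) between target and ventral, and none between target and dorsal.

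Pdgfra encodes the receptor for platelet-derived growth factor A, the defining receptor of these precursors, which brain fibroblasts also make. Its brighter probe (5290521) read 10.12, 9.53 and 9.86 in dorsal, 9.66, 10.13 and 9.37 in target and 9.67, 9.39 and 9.47 in ventral. The regions overlapped, and the highest value was that of target array 2. No pair passed, with differences of 0.32 for dorsal minus ventral (95% interval -0.22 to 0.86, limma adjusted p = 0.486) and 0.21 for target minus ventral (-0.33 to 0.75, adjusted p = 0.731). The latter was 0.0061 without target array 2 and 0.38 without target array 3. The dim probe (150017), above background on 5 of 9 arrays, gave differences from -0.12 to 0.14. Of 6 fibroblast markers 4 were tested, and 0 passed in any pair by limma (1 at an unadjusted p below 0.05 between dorsal and ventral, 3 between target and ventral and 0 between target and dorsal). Their mean level ran from 5.65 to 6.16 in dorsal, 5.77 to 5.93 in target and 6.01 to 6.43 in ventral, and Lum and Slc6a13 were too dim to be tested.

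Olig1, a basic helix-loop-helix transcription factor of the lineage, was the least variable member. Its probe (4150605) read 12.12, 12.22 and 12.32 in dorsal, 12.25, 12.17 and 12.23 in target and 12.29, 12.27 and 12.32 in ventral. The regions lay within 0.20 of each other on all 9 arrays. The difference was -0.07 for dorsal minus ventral, with an interval from -0.41 to 0.27 (limma adjusted p = 0.825). Under median centring it was 0.29, where the median difference of all tested probes was 0.36.

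Gpr17 encodes a receptor made for a short time by committed precursors. Its probe (1410762) read 8.95, 8.44 and 8.27 in dorsal, 8.41, 8.82 and 8.47 in target and 8.86, 8.47 and 8.13 in ventral. The spread within a region exceeded the distance between regions. Differences were 0.07 for dorsal minus ventral (95% interval -0.51 to 0.64, limma adjusted p = 0.909), 0.08 for target minus ventral and 0.01 for target minus dorsal.

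Sox8, a close relative of Sox10, had probes that pointed in opposite directions. The brighter probe (2450279) read 8.62, 8.94 and 8.96 in dorsal, 8.94, 9.04 and 8.73 in target and 8.71, 8.89 and 7.62 in ventral, where array 3 stood low. Its dorsal minus ventral difference was 0.43 (95% interval -0.27 to 1.14, limma adjusted p = 0.473). The dimmer probe (5810743) read 5.36, 5.48 and 6.01 in dorsal, 6.45, 5.58 and 6.23 in target and 6.87, 6.81 and 5.91 in ventral. It gave -0.91 (interval -1.66 to -0.16, unadjusted p = 0.0220, limma adjusted p = 0.142). Only 1 dorsal array was above background for it, and mouse 3 ran the other way.

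Cspg5 encodes neuroglycan C, a transmembrane proteoglycan that precursors share with neurons and astrocytes. Its brighter probe (7610176) read 8.59, 8.37 and 8.36 in dorsal, 8.15, 8.87 and 8.44 in target and 8.92, 8.98 and 8.56 in ventral. The ventral arrays were high but overlapped dorsal, at a dorsal minus ventral difference of -0.38 (95% interval -0.88 to 0.12, limma adjusted p = 0.363). The dim probe (5870440) gave -0.15 (adjusted p = 0.782). All 10 astrocyte markers were tested, and by the brightest probe of each 0 passed in any pair by limma (2 at an unadjusted p below 0.05 between dorsal and ventral, 1 between target and ventral and 0 between target and dorsal), with a mean level of 9.94 to 10.04 in dorsal, 9.89 to 9.998 in target and 9.88 to 9.97 in ventral. Another probe of Slc1a2, an astrocyte glutamate transporter gene, did pass (3940064), lower than in ventral both in dorsal (-1.22, SE 0.17, adjusted p = 0.00367) and in target (-0.89, SE 0.17, adjusted p = 0.0412). Its brightest probe gave -0.50 and -0.38 and its remaining probe 0.72 for dorsal minus ventral. Median centring moved the median of all tested probes to 0.36 between dorsal and ventral and to 0.02 between target and ventral. It ended both calls (adjusted p = 0.0513 and 0.134). So did leaving out the 3 arrays of highest unnormalized median, which keeps only ventral array 3. The target call also ended on blocking by mouse (0.0862) and without any 1 array. The part of astrocytes in the Cspg5 levels was not tested.

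The target region was compared with each of its neighbours. Against ventral 1 of 13 member probes passed (Neu4, 7.69%), where 1.78% of all tested probes did (1.17% higher and 0.616% lower in target). At an unadjusted p below 0.05 the member count was 3, beside 3271 of all 20461 tested probes. Without background correction it was 2, with Bcas1 added. No count is given without ventral arrays 1 and 2 and target array 3, since only ventral array 3 is then left. Against dorsal 0 of 13 passed by limma, with 4 at an unadjusted p below 0.05 (Sox10, Cspg4, Bcas1 and Neu4). Of all tested probes 0.0586% passed, 0.0440% higher in target and 0.0147% lower, and 1965 had an unadjusted p below 0.05. For those 4 probes target and dorsal did not overlap, which 17.5% of all tested probes share. Between target and ventral 5 of 13 did not overlap (21.1% of all tested probes), the same 4 and Olig1.

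The windows of 250 bases before the gene start are shown for Neu4 and Cspg4, the members higher in dorsal, and for Pdgfra, the precursor receptor that did not pass. They come from RefSeq on GRCm38.p6, in which 5 members had an entry that was searched. Capitals mark matches to CANNTG, the E-box read by basic helix-loop-helix factors such as the OLIG proteins. The letters ACAAAG and ACAATG, read by SOX factors, were searched as well, all on both strands.
Neu4 promoter: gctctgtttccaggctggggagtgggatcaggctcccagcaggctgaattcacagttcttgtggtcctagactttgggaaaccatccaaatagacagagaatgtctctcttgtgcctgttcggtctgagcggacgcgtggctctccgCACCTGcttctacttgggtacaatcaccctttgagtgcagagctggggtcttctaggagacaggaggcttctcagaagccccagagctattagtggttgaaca
Cspg4 promoter: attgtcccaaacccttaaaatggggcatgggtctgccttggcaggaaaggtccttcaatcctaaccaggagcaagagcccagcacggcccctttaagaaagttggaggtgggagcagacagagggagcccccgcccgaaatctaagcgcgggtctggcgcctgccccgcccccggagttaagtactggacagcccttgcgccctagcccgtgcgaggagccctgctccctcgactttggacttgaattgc
Pdgfra promoter: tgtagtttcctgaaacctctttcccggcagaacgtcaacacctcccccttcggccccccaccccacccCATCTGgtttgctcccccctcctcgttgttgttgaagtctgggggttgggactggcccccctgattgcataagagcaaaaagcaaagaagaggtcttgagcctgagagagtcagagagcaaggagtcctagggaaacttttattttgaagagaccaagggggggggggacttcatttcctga
The Neu4 window lies at chr1:94020243-94020492, the Cspg4 window at chr9:56864854-56865103 and the Pdgfra window at chr5:75152001-75152250, all on the plus strand. Neu4 and Pdgfra each held 1 E-box and Cspg4 held 0, and 66.2% of the 32851 promoter windows held at least 1. ACAAAG and ACAATG were found in none of the 3 windows, against 16.5% and 10.7% of all windows. Of the searched windows not shown, that of Olig2 held 1 match to ACAATG, 0 to ACAAAG and 0 E-boxes. The Sox8 window held 1 E-box and 0 matches to ACAAAG or ACAATG. The guanine and cytosine content was 53.6% for Neu4, 60.4% for Cspg4 and 54.4% for Pdgfra, with a median of 52.4% over all windows.

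Other genes of the lineage were read from lists, and each gene is counted by its brightest tested probe. Other probes that passed are given beside the counts and were singled out after their values were seen. Of 21 other precursor genes 17 were tested. Between dorsal and ventral 2 were higher in dorsal, 0 were lower and 15 did not pass, where 7.98% of all tested probes passed. The median difference was 0.05 against 0.04 for all tested probes. The 2 were Nkx2-2, a transcription factor gene of the lineage (1.33, SE 0.26, adjusted p = 0.0144), and Lhfpl3 (0.82, SE 0.19, adjusted p = 0.0276, or 0.0581 with mouse as a block). The other tested probes of Lhfpl3 gave -0.03 and 0.11. The Nkx2-2 call ended without dorsal array 2, dorsal array 3 or ventral array 1 (adjusted p up to 0.0581), and that of Lhfpl3 without any dorsal array or without ventral array 1 or 2 (up to 0.0963). Nkx2-2 also passed between target and ventral (1.31, adjusted p = 0.0412), a call that blocking on mouse (0.0911), median centring (0.0928) and the loss of any 1 of the 9 arrays (up to 0.125) each ended. Between target and dorsal 0 of the 17 passed by limma (2 at an unadjusted p below 0.05), and the largest differences were 0.94 for Emid1 (adjusted p = 0.521) and 0.58 for Ptprz1, a receptor phosphatase gene (adjusted p = 0.429). The other probe of Emid1 gave -0.44 and that of Ptprz1 -0.04.

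Genes of committed and newly formed oligodendrocytes had 14 of 17 measured, and 1 of the 14 passed between dorsal and ventral (7.98% of all tested probes did). Tcf7l2, a transcription factor gene switched on as precursors differentiate, was lower in dorsal than in ventral (-1.41, SE 0.20, limma adjusted p = 0.00400), and the other 13 did not pass by their brightest probes. Its other probe gave -0.81 (adjusted p = 0.239). The median of the 14 was -0.26, and 10 of 14 had a negative difference. Tns3, one of the 13 (-0.33, adjusted p = 0.250), had other probes that were higher in dorsal, 6200328 (1.29, SE 0.25, adjusted p = 0.0146) and 6510494 (1.45, SE 0.36, adjusted p = 0.0401). The 6200328 call ended without dorsal array 2, ventral array 2 or the 3 arrays of highest unnormalized median, and the 6510494 call in 12 of 17 alternatives, among them the block on mouse (0.0590) and the loss of any array but ventral array 3. In target Tcf7l2 differed by -0.76 from ventral (adjusted p = 0.106) and by 0.65 from dorsal (adjusted p = 0.363). The next largest differences were -0.64 for Fyn against ventral (adjusted p = 0.285) and 0.46 for Sirt2 against dorsal (adjusted p = 0.736), and 0 of 14 passed in either pair by limma (2 and 1 at an unadjusted p below 0.05).

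Of 19 tested myelin genes 3 were lower in dorsal than in ventral, 1 was higher and 15 did not pass by their brightest probes (7.98% of all tested probes passed), with a median difference of 0.10. The 3 were Cldn11, which encodes a tight junction protein of myelin (-1.24, SE 0.17, adjusted p = 0.00338), Mobp (-1.14, SE 0.19, adjusted p = 0.00707) and Mbp, the myelin basic protein gene (-0.93, SE 0.15, adjusted p = 0.00707). These are the brightest probes of their genes: the 4 other tested probes of Mobp gave -0.31 to 0.29, and those of Mbp -0.17 to 0.62, and none of these 8 passed. Myrf, the gene of a transcription factor needed for myelin, was higher in dorsal (1.82, SE 0.33, adjusted p = 0.0108), and its other probe gave 0.73 (adjusted p = 0.0829). Nkx6-2, a homeobox gene of the lineage, was among the 15 (0.10, adjusted p = 0.849), while its other probe was lower in dorsal (4120575, -0.71, SE 0.17, adjusted p = 0.0324). That call ended in 10 of 17 alternatives, among them median centring (-0.30, adjusted p = 0.398), the block on mouse (0.0611) and the loss of dorsal array 1, 2 or 3, ventral array 2 or 3 or target array 1. Median centring moved the median of all tested probes to 0.36 between dorsal and ventral. It ended the calls of Mobp (-0.73, adjusted p = 0.0814) and Mbp (-0.53, adjusted p = 0.144). Myrf was also higher in target than in ventral (1.67, adjusted p = 0.0414), which ended on blocking by mouse (0.0648), with median centring (0.0505) and without any 1 of the 9 arrays (up to 0.151). Between target and dorsal 0 of 19 passed by limma (4 at an unadjusted p below 0.05), and the largest differences were 1.07 for Aspa (adjusted p = 0.441) and 0.78 for Cldn11 (adjusted p = 0.177). The other probe of Aspa gave -0.59.

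**Figure D3:**
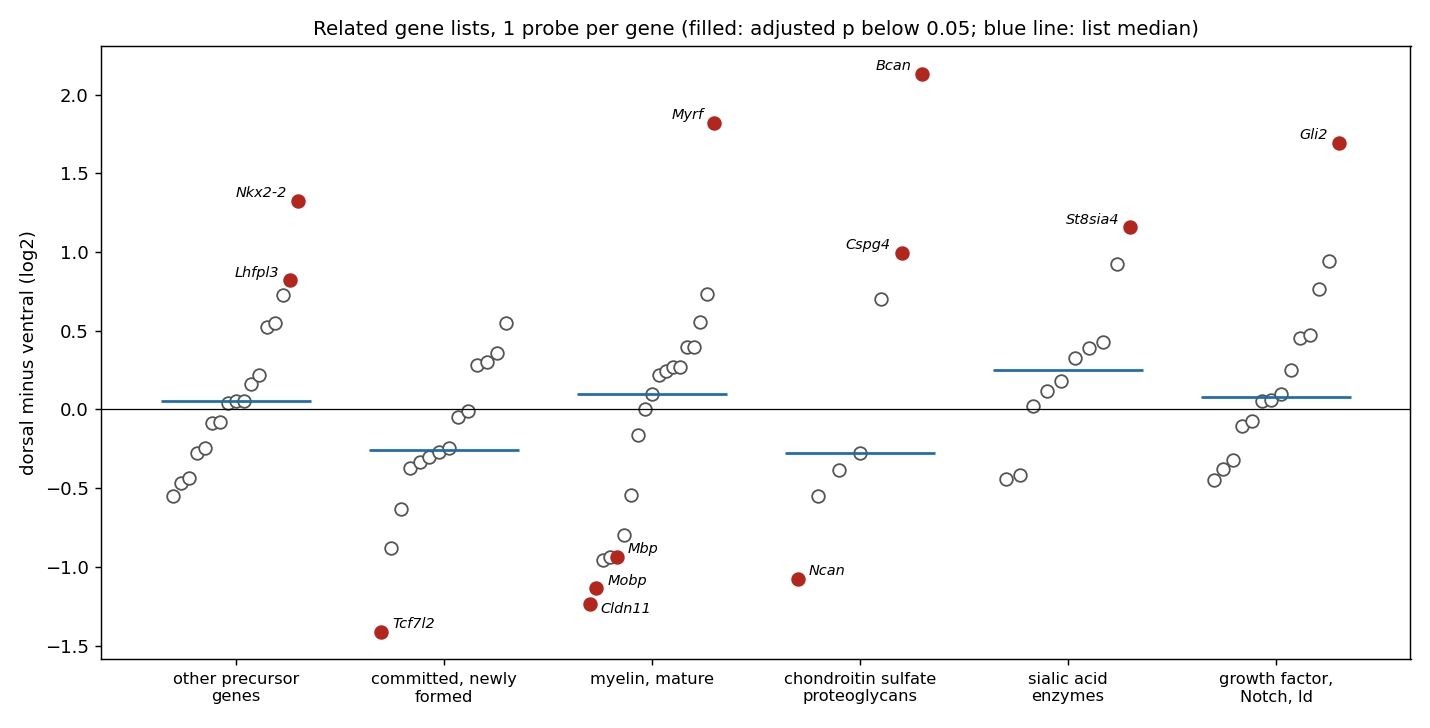
Dorsal minus ventral difference (log2) of every tested gene in 6 related lists, 1 point per gene, with the list median as a blue line and filled points where the adjusted p is below 0.05. Named points are the 12 called entries, with Cspg4 shown among the proteoglycans and the lists' medians lying between -0.27 and 0.25.

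Proteoglycans that carry chondroitin sulfate include Cspg4 and Cspg5. Bcan, the brevican gene, was higher in dorsal (2.13, SE 0.16, limma adjusted p = 2.79e-04) and in target (1.82, SE 0.16, adjusted p = 0.00122) than in ventral. Ncan, the neurocan gene, was lower in dorsal against ventral (-1.07, SE 0.19, adjusted p = 0.00896), a call that median centring ended (-0.67, adjusted p = 0.0895). With that scaling the median of all tested probes was 0.36. The other tested probes of Bcan gave 0.72 and -0.45 between dorsal and ventral. Of the 7 genes, members included, 2 were higher in dorsal, 1 was lower and 4 did not pass (7.98% of all tested probes passed). Between target and dorsal 0 of 7 passed by limma (2 at an unadjusted p below 0.05), and Acan had the largest difference (-1.20, adjusted p = 0.618). Acan was above background on 2 arrays of each region, and its difference was -0.48 without dorsal array 1 and -2.05 without dorsal array 2.

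The list of sialidases and sialic acid enzymes leaves out Neu4 and also holds Ncam1, which encodes no such enzyme. Among its 10 tested genes 1 passed between dorsal and ventral, where 7.98% of all tested probes did. St8sia4, which encodes a polysialyltransferase, was higher in dorsal (1.16, SE 0.23, limma adjusted p = 0.0147), and its other probe gave -0.34 (adjusted p = 0.458). The call ended without dorsal array 2 or dorsal array 3 (adjusted p up to 0.0551). The other sialidase genes Neu1, Neu2 and Neu3 differed by 0.32, 0.18 and 0.12, and none of them passed. The list's median was 0.25 between dorsal and ventral, 0.12 between target and ventral and -0.13 between target and dorsal, with 0 of 10 passing in the last 2 pairs by limma (2 and 0 at an unadjusted p below 0.05). The largest differences were 0.82 for St8sia1 and 0.81 for St8sia4 against ventral, and -0.41 for St8sia5 and 0.39 for St8sia1 against dorsal (adjusted p from 0.114 to 0.811). The other probes of St8sia4 and St8sia5 gave the opposite sign in these pairs (-0.14 and 0.38).

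Of 14 tested growth factor, Notch and Id genes, 1 passed between dorsal and ventral by its brightest probe, Gli2 (7.98% of all tested probes passed). Gli2 encodes a transcription factor of Hedgehog signalling. It was above background on 3 dorsal and 0 ventral arrays, and was at least 2.28-fold higher in dorsal (limma adjusted p = 0.00236). Zeb2, a transcription factor gene of the same list, gave -0.32 by its brightest probe (adjusted p = 0.252), while probe 290601 was higher in dorsal (0.90, SE 0.20, adjusted p = 0.0288) and a further probe gave -0.64 (adjusted p = 0.110). The 290601 call ended in 9 of 17 alternatives, among them the block on mouse (0.0502) and the loss of dorsal array 1, 2 or 3, ventral array 1 or 2 or target array 1. Pdgfa, the ligand of the Pdgfra receptor, differed by 0.25 (adjusted p = 0.517). In the pairs with target 0 of 14 passed by limma (2 at an unadjusted p below 0.05 against ventral and 1 against dorsal), where the largest differences were 0.92 for Erbb3 over ventral (adjusted p = 0.438) and 0.93 for Id4 over dorsal (adjusted p = 0.559).

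Of 7 tested neuronal markers, Stmn2 (-1.17, adjusted p = 0.0164) and Eno2 (-0.74, adjusted p = 0.0339) were lower in dorsal than in ventral. The other 5 did not pass by limma, where 7.98% of all tested probes passed. The other probe of Stmn2 gave 0.68. The mean level of the 7 ran from 10.38 to 10.59 in dorsal, 10.51 to 10.73 in target and 10.79 to 10.88 in ventral. Their part in the differences of the lineage genes was not tested. Both calls ended with median centring (adjusted p = 0.0809 and 0.370), which moved the median of all tested probes to 0.36. The Stmn2 call also ended without dorsal array 2 or 3 or ventral array 1 (up to 0.0646). The Eno2 call ended without any dorsal or ventral array (up to 0.119). Among microglial (5 of 8 tested) and endothelial markers (6 of 6) 0 passed in any pair by their brightest probes in limma, with at most 1 of each at an unadjusted p below 0.05. Of the 4 tested hindbrain Hox genes 0 passed by their brightest probes either. Another Hoxb3 probe (4010619) was higher in dorsal than in ventral (2.26, SE 0.45, limma adjusted p = 0.0164), and a further one gave 0.37. The 4010619 call ended without dorsal array 2, ventral array 1 or ventral array 3. Without the 3 arrays of highest unnormalized median, every call named from these lists ended except those of Bcan and Hoxb3 (4010619) between dorsal and ventral. In that fit ventral keeps only array 3, and the loss of calls cannot be told apart from the loss of replicates.

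The probes whose levels over the 9 arrays were most like those of Neu4 (4290176) carried the names D230048P18RIK (r = 0.994), LOC333744 (0.992), Gpr85 (0.991), Crtac1 (0.990) and 4930503B20Rik (0.990). All 5 were lowest in ventral, which follows from choosing them by their likeness to Neu4. D230048P18RIK was above background on 7 of 9 arrays and 4930503B20Rik on 6. Gpr85, an orphan receptor gene, had means of 9.46, 9.34 and 8.45 in dorsal, target and ventral. Crtac1, a gene of an extracellular matrix protein, had 11.23, 11.004 and 9.76. The arrays share mice and regions, and the correlations carry no test. For Pdgfra (5290521) the closest probe was that of Rpl37, a ribosomal protein gene (r = 0.945), followed by A630097K09RIK, Alppl2, Cfap61 and F11 (0.943 to 0.933), the last 2 above background on 3 of 9 arrays.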

How the data were processed

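RNA from 3 brainstem regions of 3 mice was measured on 9 Illumina arrays. The deposited intensities are linear and come from a GenomeStudio 1.6.0 export, per the file headers, in an unnormalized and a quantile-normalized version. Per the file headers the export also holds a detection score, the number of beads and the SD over beads for each probe. Bright probes had a deposited detection score near 1, and 1 minus it served as the detection p. Of the other deposited tables of intensities, one equalled the unnormalized export (largest difference 0) and the other the quantile-normalized export (largest difference 0).

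Log2 values were computed here from the deposited intensities with limma 3.58.1 in R 4.3.3. The function neqc applied a normexp background correction (offset 16), quantile scaling between arrays and a log2 transform. A probe counted as above background at a detection p below 0.05 and was tested when this held on at least 3 of the 9 arrays. All 20461 such probes entered 1 limma fit with region as the only term, with Benjamini-Hochberg adjustment over all of them and 0.05 as the limit. Gene names are those of the array, updated through the RefSeq gene table of GRCm38.p6. The brightest tested probe stands for a gene in the lists. No probe sequences were used, and no column of values lacked a sample. The fit was tested on simulated data. One gene of the myelin list is not reported here, and the list's counts leave it out.

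The member genes and the lists were chosen with earlier results of these data known. Most names in the text follow a rule: every member probe, up to 4 called genes of each list and region pair, and up to 2 with the largest difference where none was called. Names outside the rule include Pdgfa, Neu1, Neu2, Neu3, Ncam1, genes without a tested probe, and genes with another probe that passed. The last were singled out after their values were seen. Likeness was taken for Neu4, Olig2 and Pdgfra, as the 5 tested probes of other genes with the highest Pearson correlation; Olig2 had no tested probe. The same mouse gave the dorsal, target and ventral arrays of one number, per the column names of a deposited table. Deviations from the region means of arrays from the same mouse correlated between -0.10 and 0.15. Alternatives changed the background correction, scaling, filter, arrays, mouse term and the probes averaged per gene. Arrays were left out without renormalizing the rest.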

Additional observations from a re-analysis of the deposited data

How the results depend on the processing

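The 4 member calls between dorsal and ventral numbered 4 without any 1 array and with mouse as a block, and 3 with median centring. The fit without ventral arrays 1 and 2 and target array 3 was chosen after seeing the data. It keeps only ventral array 3, so its differences are given and its member counts are not. Between target and ventral the member calls were 1 with mouse as a block, 2 without background correction and 2 in the authors' quantile-normalized table. Between target and dorsal they were 0 in each alternative run (2 to 4 at an unadjusted p below 0.05).

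Over all probes, the 12 called between target and dorsal became 88 without background correction and 88 in the authors' table. They became 32 at a detection p below 0.01, 20 with no filter and 3 with the replicate block on mouse. With only the arrays of the pair they became 1, and without 1 array 1 to 4. The 365 called between target and ventral became 833 without background correction, 832 in the authors' table and 178 with median centring. They became 154 with the block, 123 with only the arrays of the pair and 65 to 278 without 1 array. The 1632 called between dorsal and ventral became 2563 with median centring, 194 without the 3 arrays and 935 to 1451 without 1 array. The fit without the 3 arrays keeps only ventral array 3, so its lower count cannot be told apart from a loss of replicates. Median centring moved the median of all tested probes from 0.04 to 0.36 between dorsal and ventral and from -0.02 to -0.35 between target and dorsal. It turned the split of higher and lower calls from 830 and 802 to 2159 and 404 between dorsal and ventral and from 9 and 3 to 3 and 14 between target and dorsal. Between target and ventral the split of 239 and 126 became 134 and 44, or 431 and 402 without background correction. The block on mouse ended the calls of Lhfpl3, Nkx2-2 and Myrf (both target against ventral), and of the other probes of Tns3 (6510494), Nkx6-2, Zeb2 and Slc1a2 (target against ventral), and no other call named.

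The sign turned in 45 of 1352 differences and alternatives, 0 of them for a called difference, and the cause was not tested. With median centring, target minus dorsal was -0.38 for Cspg5 (7610176), -0.0092 for Cspg5 (5870440), -0.37 for Sox8 (2450279), -0.43 for Gpr17 and -0.31 for Neu4 (1690634). Relative to the median of all tested probes (-0.35) these stood at -0.03, 0.34, -0.02, -0.08 and 0.04. Dorsal minus ventral with median centring was 0.017 for Cspg5 (7610176), 0.12 for Cspg5 (5870440), 0.29 for Olig1 and 0.38 for Neu4 (1690634). Relative to the median of all tested probes (0.36) these stood at -0.35, -0.24, -0.07 and 0.02. Averaging both Sox8 probes gave -0.24 for dorsal minus ventral. Without the 3 arrays, target minus dorsal was 0.062 for Pdgfra (5290521), and dorsal minus ventral 0.76 for Neu4 (1690634). Target minus ventral was then -0.22 for Pdgfra (150017), -0.43 for Cspg5 (5870440), 0.11 for Sox8 (5810743), 0.075 for Fyn and -0.37 for St8sia1.

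Without 1 array, target minus dorsal ran from -0.32 to 0.062 for Pdgfra (5290521), -0.31 to 0.13 for Pdgfra (150017), -0.14 to 0.21 for Cspg5 (7610176), -0.055 to 0.044 for Olig1, -0.045 to 0.15 for Sox8 (2450279), -0.13 to 0.21 for Gpr17 and -0.064 to 0.20 for Neu4 (1690634). Target minus ventral ran from 0.0061 to 0.38 for Pdgfra (5290521), -0.17 to 0.26 for Pdgfra (150017), -0.090 to 0.32 for Cspg5 (5870440), -0.10 to 0.27 for Gpr17 and -0.31 to 0.42 for Neu4 (1690634). Dorsal minus ventral ran from -0.11 to 0.28 for Pdgfra (150017), -0.33 to 0.076 for Cspg5 (5870440), -0.13 to 0.25 for Gpr17 and -0.39 to 0.34 for Neu4 (1690634). The chip as a block was not run, since no chip is named for the arrays used here.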
